A study of Homo sapiens with 14 samples.

Results

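The neural crest specifiers described here are 10 transcription factors and cofactors, chosen by name with earlier results of these data known. Among them are the AP-2 factors TFAP2A and TFAP2B, the winged-helix factor FOXD3, the ETS factor ETS1 and the SOXE factors SOX8, SOX9 and SOX10. The others are the SOXD factor SOX5, the LIM-only protein LMO4 and the nuclear receptor RXRG. The 10 are set against the share of all genes as a description only. They are 10 of the 26485 genes in the count table, and all 10 were among the 16149 genes tested, although TFAP2A, TFAP2B, FOXD3 and RXRG had almost no counts in some groups and passed the filter on low counts through the groups where they were high. Messenger RNA was sequenced from WA01 (H1) cells, a human embryonic stem cell line, and from cultures induced from that line towards neural crest for 5 days. The uninduced cells are called hESC. Induction used CHIR99021, which blocks the kinase GSK3 and so turns on Wnt target genes, from hour 0 to hour 72, at 3 µM in low Wnt and at 10 µM in high Wnt. At either dose further cultures were given an additive over hours 0 to 120. This was SB431542 (SB4, 10 µM), which blocks the ALK5-type receptors used by TGF-beta, activin and nodal, or recombinant TGF-beta 1 (TGFB), whose dose the labels give as 5 ng/µL, a unit that could not be checked here and may be meant as ng/mL. Each of the 2 doses thus has a group without additive, one named + SB4 and one named + TGFB, which with hESC makes 7 groups of 2 libraries, all from 1 cell line. Nothing in the labels says that a group's libraries are from cultures grown apart, so every p-value measures only how these libraries vary, and that variation may be technical.

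The neural crest arises at the edge of the neural plate, where Wnt, BMP and FGF signals first switch on border factors such as PAX3 and ZIC1. The crest specifiers follow: TFAP2A and FOXD3 act early, SOX9 and SOX10 maintain crest cells and direct them to cartilage, glia and pigment cells, and ETS1 is known in vertebrate embryos as a factor of the cranial crest. FOXD3 is also needed in pluripotent stem cells, which is why its level in uninduced cells is not a measure of crest identity.

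Library totals ran from 10879287 to 19106827 counts, and the pairs of libraries had correlations of log2 counts-per-million (CPM) across genes of 0.988 to 0.992. Levels of 1 gene across groups are given in CPM, and levels of different genes are compared in transcripts-per-million (TPM), which also divides by exonic length. Means carry the SD of a group's 2 libraries (n = 2), and log2 fold changes carry their standard error (SE). A gene was called higher or lower at an adjusted p under 0.05 after Benjamini-Hochberg adjustment over all genes tested, using the quasi-likelihood test of edgeR, and all adjusted p values below come from that test. Because bulk RNA was measured, fewer cells expressing a gene and less of its RNA per cell cannot be told apart.

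Induction turned different specifiers up and down. In low Wnt against hESC, 5 of the 10 were called higher (TFAP2A, TFAP2B, SOX5, SOX9 and RXRG), against 35.8% of all genes tested, and 2 were called lower (FOXD3 and ETS1), against 35.6%. Their median log2 fold change was 0.96, against 0.00 over all genes tested. In high Wnt against hESC, 4 were called higher (SOX5, SOX8, SOX9 and RXRG), against 36.3%, and 3 lower (FOXD3, ETS1 and SOX10), against 36.1%. Between the doses, ETS1 and SOX8 were called higher in high Wnt, 2 of 10 against 19.4% of all genes. TFAP2A, TFAP2B, SOX5, SOX10 and RXRG were called lower there, 5 of 10 against 19.1%. The median of the 10 for the higher against the lower dose was -1.12, against -0.01 over all genes tested. These comparisons share libraries, so their counts are not independent of each other. TFAP2A, TFAP2B and RXRG had 3, 0 and 13 counts in high Wnt and passed the filter through groups where they were high. They are among the genes called higher in low Wnt and lower in high Wnt. The counts and medians above are therefore descriptions and no test of the set.

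**Figure D1:**
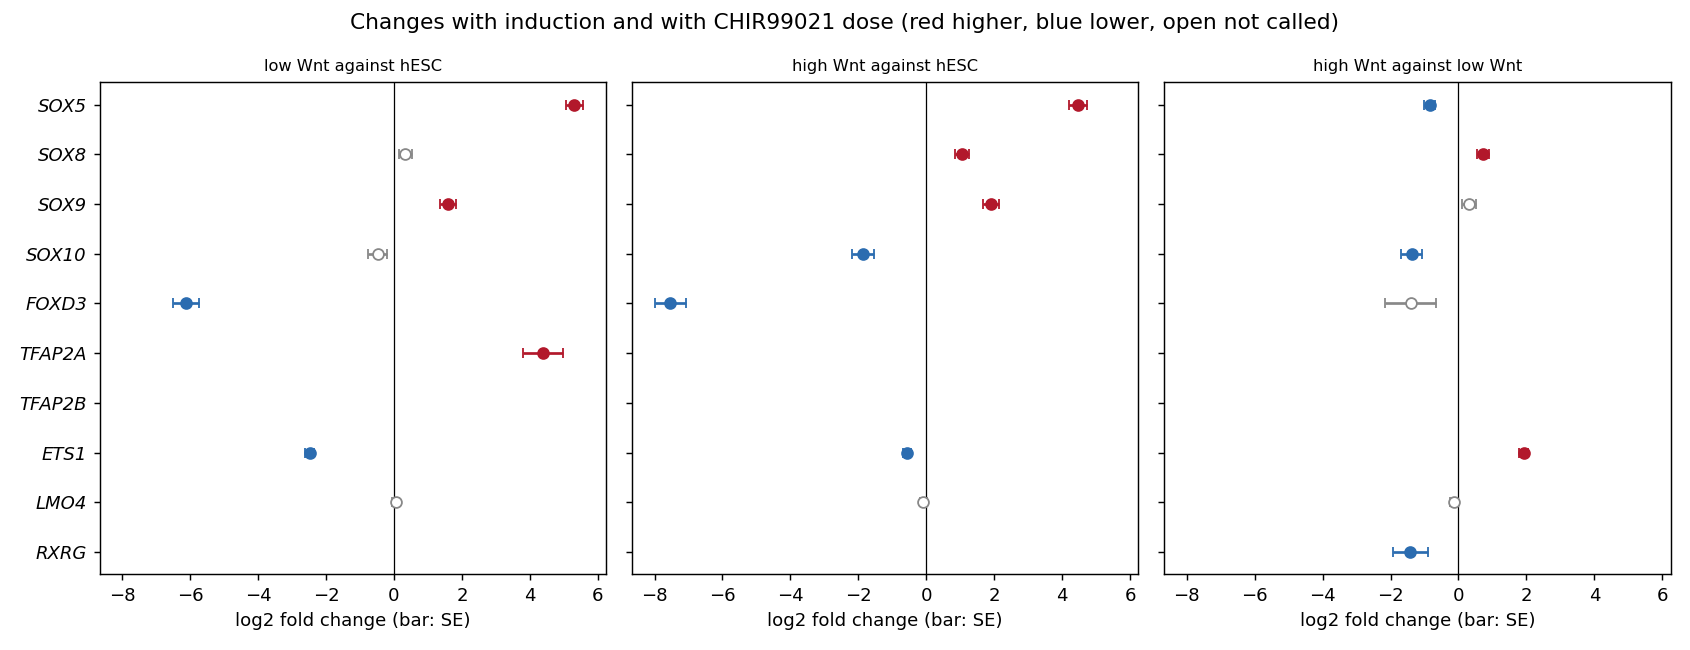
Log2 fold change (x axis) of each specifier (y axis) in low Wnt against hESC, high Wnt against hESC and high Wnt against low Wnt, with bars of 1 SE; red points were called higher, blue points lower and open grey points were not called. A gene with 3 counts or fewer in 1 of the groups has no point, since its fitted value depends on the prior count. FOXD3 lies far to the left at both doses, and ETS1 lies left of 0 against hESC and right of 0 between the doses.

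With an additive, 6 of the 10 were called in at least 1 comparison: ETS1, SOX8, SOX10, FOXD3, TFAP2A and SOX5. With SB4 in low Wnt, none was called higher, against 4.84% of all genes, and 3 were called lower (ETS1, SOX8 and SOX10), against 6.39%. By edgeR's unadjusted p under 0.05, 1 was higher there (LMO4), and DESeq2 called none higher. With TGFB in low Wnt, 3 were called higher (FOXD3, TFAP2A and ETS1), against 13.7%, and 1 lower (SOX5), against 12.2%. With SB4 in high Wnt, none was called higher, against 9.94%, with 2 higher at edgeR's unadjusted p under 0.05 (SOX5 and RXRG) and none called higher by DESeq2, and ETS1 alone of the 10 was called lower, against 11.6%. With TGFB in high Wnt, none was called higher, against 3.75%, with 1 higher at edgeR's unadjusted p under 0.05 (FOXD3) and none called higher by DESeq2, and 1 was called lower (SOX10), against 3.49%. The SB4 effect was called different between the doses for ETS1, 1 of 10 against 6.07% of all genes. The TGFB effect was called different for ETS1 and SOX10, 2 of 10 against 11.8%. At each dose the SB4 and TGFB comparisons share the same libraries without additive.

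**Figure D2:**
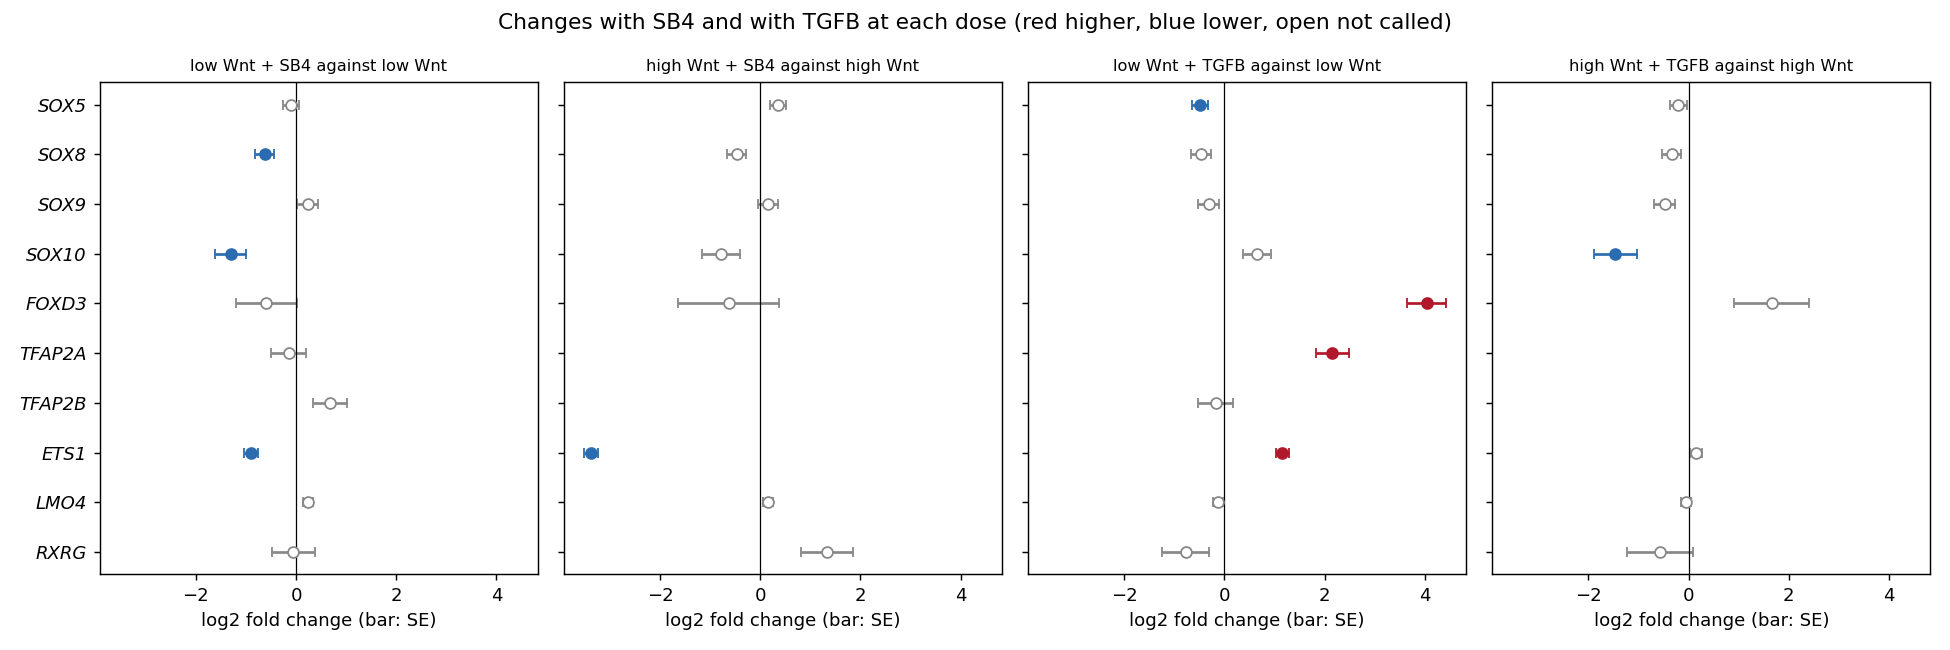
Log2 fold change (x axis) of each specifier (y axis) with SB4 or with TGFB against the same CHIR99021 dose without additive, with bars of 1 SE; red points were called higher, blue points lower and open grey points were not called, and genes with 3 counts or fewer in 1 of the groups have no point. ETS1 with SB4 in high Wnt, at -3.38, lies farthest to the left, and FOXD3 with TGFB in low Wnt, at 4.04, farthest to the right.

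TFAP2A (hg38 chr6:10396683-10419564, minus strand), an early specifier that opens crest enhancers, was detected above a few counts in the low Wnt groups and was highest with TGFB. Its levels were 3.84 and 3.17 CPM in the libraries of low Wnt, 3.29 and 3.04 CPM in low Wnt + SB4, and 11.95 and 19.1 CPM in low Wnt + TGFB. In hESC the gene had 3 and 1 counts and in high Wnt 2 and 1 counts, and the other high Wnt groups had at most 5 counts in a library. Both low Wnt + TGFB libraries were thus above every other library, and the low Wnt libraries overlapped those with SB4. The rise from hESC to low Wnt was 4.40 ± 0.59 (log2, adjusted p = 4.46e-06), and it was 5.25 without hESC replicate 1, where the hESC libraries held 4 counts in all. Against low Wnt, TFAP2A rose with TGFB by 2.15 ± 0.33 (log2, adjusted p = 0.000115). High Wnt had 3 counts in all against 116 in low Wnt, a ratio of 31.0 with a 95% counting interval of 10.3 to 153, and the gene was called lower there (adjusted p = 7.83e-06). With SB4 in low Wnt its log2 fold change was -0.15 ± 0.35 (adjusted p = 0.847).

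TFAP2B (chr6:50818726-50847613, plus strand), the second AP-2 factor of the crest, was found in the same groups but did not share the highest one. It stood at 2.86 and 2.63 CPM in low Wnt, 3.84 and 4.93 CPM in low Wnt + SB4, and 2.35 and 2.52 CPM in low Wnt + TGFB. None of the 8 libraries of hESC and of the high Wnt groups held more than 1 count, and both high Wnt libraries held 0. Low Wnt had 91 counts, so TFAP2B was at least 24.3-fold lower in high Wnt, with the floor set at 3 counts for the group (adjusted p = 2.64e-06). Against the 1 count of hESC the ratio was 69.5 with a 95% counting interval of 12.2 to 2770 (adjusted p = 2.1e-06). The 3 low Wnt groups did not overlap one another, but neither additive moved the gene past the threshold: the log2 fold change was 0.68 ± 0.34 with SB4 (adjusted p = 0.233) and -0.17 ± 0.35 with TGFB (adjusted p = 0.767). In TPM, TFAP2A made up 63.3 ± 1.76% of the summed AP-2 pair in low Wnt, 49.7 ± 5.80% in low Wnt + SB4 and 89.3 ± 2.69% in low Wnt + TGFB. With no more than 5 counts of the pair in any other library, no share is given for the remaining groups.

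TFAP2A, TFAP2B, SOX5 and RXRG were called higher in low Wnt than in hESC and lower in high Wnt than in low Wnt. Both comparisons share the low Wnt libraries, and the sizes differed. In high Wnt SOX5 was still 4.46 above hESC (log2), while the AP-2 pair had almost no counts. The sequence before the start sites of TFAP2A, TFAP2B and SOX5 is shown because their calls had the same directions. That of RXRG is not shown, since only 21 bases of it lie outside the counted gene. The sequences are from RefSeq (GRCh38.p14), which held promoters for 6 of the 10 (SOX5, FOXD3, TFAP2A, TFAP2B, LMO4 and RXRG). They cover the 250 bases before the start, or as much of them as lies outside the gene as it was counted, and read 5′ to 3′ on the gene's strand: SOX5 at chr12:24562492-24562741 on the minus strand, TFAP2A (the outer of its 2 starts) at chr6:10419660-10419909 on the minus strand, and TFAP2B at chr6:50818621-50818725 on the plus strand. Capitals mark matches to short motifs searched on both strands: CATTGT for SOX factors, CAGAC for SMAD factors (GTCTG on the other strand), CTTTGA for TCF/LEF factors and GCCNNNGGC for AP-2.
SOX5: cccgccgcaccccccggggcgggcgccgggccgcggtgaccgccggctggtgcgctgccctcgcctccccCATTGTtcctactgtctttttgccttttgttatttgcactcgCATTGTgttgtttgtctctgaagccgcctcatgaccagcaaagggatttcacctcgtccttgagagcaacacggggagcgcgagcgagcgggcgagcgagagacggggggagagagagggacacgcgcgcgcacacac
TFAP2A: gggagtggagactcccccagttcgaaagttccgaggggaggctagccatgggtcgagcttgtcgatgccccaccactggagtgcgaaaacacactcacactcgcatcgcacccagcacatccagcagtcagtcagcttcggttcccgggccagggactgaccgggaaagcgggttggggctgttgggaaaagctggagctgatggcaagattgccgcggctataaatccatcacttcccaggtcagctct
TFAP2B: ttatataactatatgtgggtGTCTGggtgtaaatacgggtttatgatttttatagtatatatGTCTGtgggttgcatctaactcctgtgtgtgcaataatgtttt
The SOX motif occurred at 2 places before SOX5, and 9.29% of the 35116 promoters of this length in the table held it. The SMAD motif occurred at 3 places in the 250 bases before TFAP2B, 2 of them in the stretch shown, at 2 places before the inner start of TFAP2A, and in 38% of all promoters. The TCF/LEF motif (11.2% of all promoters) and the AP-2 motif (19.8%) were not found in the windows of these genes, and the RXRG window held none of the 4 motifs. No capitals stand in the TFAP2A sequence, and none of the matches overlap. A match describes the letters only and is not a measured binding site.

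FOXD3 (chr1:63323059-63325126, plus strand), a repressor that keeps crest cells multipotent and also serves stem cells, was high before induction and next highest in low Wnt + TGFB. It stood at 32.0 and 41.0 CPM in hESC and at 7.61 and 9.49 CPM in low Wnt + TGFB. The 2 low Wnt libraries held 14 and 3 counts, or 0.853 and 0.179 CPM, and all other induced libraries lay under 0.8 CPM. FOXD3 fell with induction, with a log2 fold change of -6.13 ± 0.38 in low Wnt and -7.54 ± 0.45 in high Wnt (adjusted p = 4.71e-10 and 2.63e-10). Against low Wnt it rose with TGFB by 4.04 ± 0.39 (log2, adjusted p = 9.43e-07). The base of that comparison is 17 counts, and its size moved with the low Wnt libraries: it was 5.51 without low Wnt replicate 1 and 3.31 without low Wnt replicate 2, and the fall from hESC was -7.60 and -5.40 in the same fits. In low Wnt + TGFB the mean was still 4.27-fold below hESC. In high Wnt the change with TGFB was 1.66 ± 0.75 (log2), which did not pass (adjusted p = 0.216), and the difference of the TGFB effect between doses was -2.38 ± 1.04 (adjusted p = 0.162). That difference passed only in the fit without low Wnt replicate 1 (adjusted p = 0.0291).

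Markers of stem cells were, like FOXD3, highest in hESC and next highest in low Wnt + TGFB. The summed level of 10 pluripotency genes was 8087 to 8156 CPM in hESC, 1645 to 1884 in low Wnt, 1200 to 1336 in low Wnt + SB4 and 3431 to 3913 in low Wnt + TGFB. It was 909 to 1038 in high Wnt, 901 to 1014 in high Wnt + SB4 and 650 to 652 in high Wnt + TGFB, and NANOG was at 0 in both high Wnt libraries. The sum was thus lowest in high Wnt + TGFB. Most of it in the high Wnt groups was LIN28A, at 636 CPM on average in high Wnt and 340 in high Wnt + TGFB. FOXD3 had 4 and 13 counts in high Wnt + TGFB against 2 and 3 in high Wnt, a change that was not called. Of the 10 marker genes, all were at 1 CPM or more in hESC, low Wnt and low Wnt + TGFB, and 6 in the other groups. LIN28A made up most of the sum in low Wnt, and went from 1137 CPM there to 1705 in low Wnt + TGFB on average. Other markers rose by larger steps between these groups: POU5F1 from 3.16 to 41.9 CPM, NANOG from 1.20 to 17.1 and TDGF1 from 13.7 to 219. The 9 endoderm markers summed to 84.3 to 151 CPM in low Wnt + TGFB against 21.3 to 22.4 in low Wnt. They also summed to 96.3 to 115 CPM in high Wnt and 133 to 137 in high Wnt + TGFB, mostly from CXCR4, at 94.1 and 118 CPM on average. The endoderm sum was 32.0 to 35.3 CPM in low Wnt + SB4, 60.2 to 64.7 in high Wnt + SB4 and 3.04 to 5.26 in hESC. The part of either set of cells in the FOXD3, TFAP2A and ETS1 changes was not tested.

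**Figure D3:**
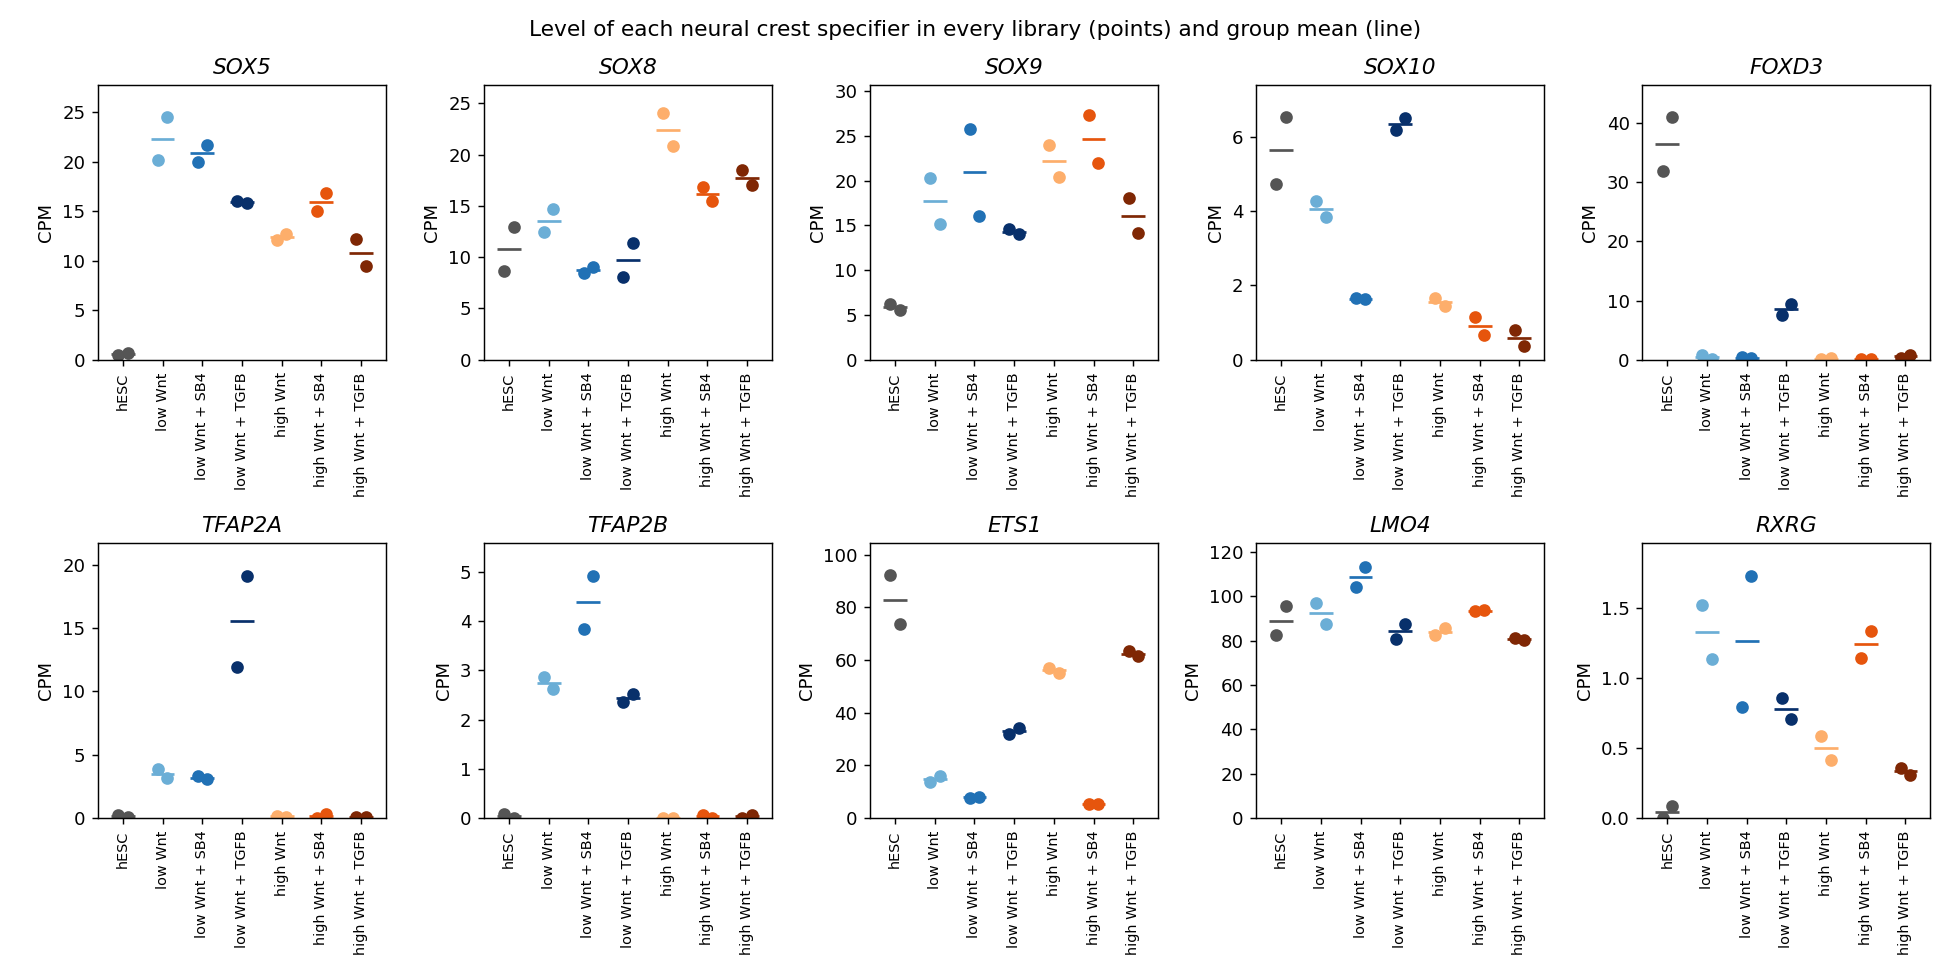
Level in CPM (y axis, linear from 0) of each of the 10 specifiers in each of the 14 libraries (points), by group (x axis), with the group mean as a line. FOXD3 is high in hESC at 36.5 CPM on average and next in low Wnt + TGFB at 8.55, the AP-2 genes are near 0 outside the low Wnt groups, ETS1 drops to 5.37 in high Wnt + SB4, and LMO4 stays between 80.3 and 113 in all libraries.

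ETS1 (chr11:128458761-128587558, minus strand), an ETS-domain activator of cranial crest and of blood vessels, was highest in hESC and lowest in high Wnt + SB4. Its levels were 92.3 and 73.6 CPM in hESC, 61.4 and 63.5 in high Wnt + TGFB, and 57.0 and 55.0 in high Wnt. Low Wnt + TGFB followed at 31.7 and 34.3, then low Wnt at 13.8 and 15.8, low Wnt + SB4 at 7.74 and 8.12, and high Wnt + SB4 at 5.27 and 5.46 CPM. No library of a group overlapped a library of the next group in this order. With 2 libraries per group this is a description only, and how many of all genes show it was not counted. High Wnt + TGFB, for 1, was not called different from high Wnt (adjusted p = 0.516). High Wnt was thus among the highest groups without SB4 and the lowest of all with it. ETS1 fell against hESC at both doses, with a log2 fold change of -2.49 ± 0.13 in low Wnt and -0.57 ± 0.12 in high Wnt (adjusted p = 5.55e-11 and 0.000416). It was higher in high Wnt than in low Wnt by 1.92 ± 0.13 (log2, adjusted p = 3.06e-09).

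SB4 lowered ETS1 at both doses, by much more in high Wnt. The log2 fold change was -3.38 ± 0.14 in high Wnt (adjusted p = 2.17e-10), which is a level of 0.096 times that without SB4. In low Wnt it was -0.90 ± 0.14 (adjusted p = 0.000486). The difference between the doses was itself called, at -2.48 ± 0.20 (adjusted p = 1.00e-06). TGFB raised ETS1 in low Wnt by 1.16 ± 0.13 (log2, adjusted p = 4.58e-06), while in high Wnt the change was 0.16 ± 0.12 (adjusted p = 0.516), and this difference was called as well, at -1.001 ± 0.18 (adjusted p = 0.00106). All 8 of these ETS1 calls were made under every alternative fit that was run, including each fit with 1 library left out. With each additive, the summed level of the 10 endothelial and blood markers lay on the same side of the level without additive as ETS1 did. It came to 82.6 to 82.8 CPM in high Wnt, 38.8 to 40.7 in high Wnt + SB4 and 92.0 to 92.8 in high Wnt + TGFB. In low Wnt the sum was 175 to 182 CPM, in low Wnt + SB4 115 CPM, and in low Wnt + TGFB 211 to 239. FLT1, a receptor of vessel cells, stood at 56.3 ± 0.37 CPM in high Wnt and 15.04 ± 0.93 in high Wnt + SB4. KDR, another, stood at 3.41 ± 0.34 CPM in low Wnt and 35.5 ± 5.56 in low Wnt + TGFB, but at 177 ± 15.4 in hESC. TEK, which made up most of the low Wnt sum, went with ETS1 only for SB4 in low Wnt. Its level was 170 ± 4.54 CPM in low Wnt, 112 ± 0.59 in low Wnt + SB4 and 147 ± 12.7 in low Wnt + TGFB. In high Wnt TEK was at 18.6 ± 0.61 CPM, with SB4 at 21.1 ± 0.02 and with TGFB at 15.2 ± 2.47. Between the doses the sum went the other way from ETS1, and it was 402 to 467 CPM in hESC. EMCN and GATA1 were at 0 in both libraries of every induced group and of hESC, and the part of these markers in the ETS1 changes was not tested.

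The SOXE factors, which share a DNA-binding domain and partly replace one another, were called in different comparisons. SOX10 (chr22:37972312-37984532, minus strand), the factor of crest stem cells, glia and pigment cells, was at 4.74 and 6.53 CPM in hESC, 4.26 and 3.83 in low Wnt, and 6.19 and 6.50 in low Wnt + TGFB. It was at 1.65 and 1.62 CPM in low Wnt + SB4, 1.66 and 1.44 in high Wnt, 1.14 and 0.669 in high Wnt + SB4, and 0.806 and 0.368 in high Wnt + TGFB. SOX10 was not called higher than in uninduced cells at either dose: its log2 fold change was -0.47 ± 0.28 in low Wnt (adjusted p = 0.142) and -1.85 ± 0.32 in high Wnt (adjusted p = 6.15e-05). It was lower in high Wnt than in low Wnt by 1.38 on the log2 scale (SE 0.32, adjusted p = 0.0025).

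With SB4 in low Wnt, SOX10 fell by 1.30 ± 0.31 on the log2 scale (adjusted p = 0.01), a call that was lost without low Wnt replicate 1 or without either low Wnt + SB4 library (adjusted p 0.0659 to 0.0899). With TGFB its log2 fold change was 0.65 ± 0.28 in low Wnt, which did not pass (adjusted p = 0.0964), and -1.47 ± 0.43 in high Wnt (adjusted p = 0.047). The difference between these effects was called, at -2.11 ± 0.51 (adjusted p = 0.0107), but not without high Wnt + TGFB replicate 2 (adjusted p = 0.0946). The high Wnt call rests on 15 counts in high Wnt + TGFB against 41 in high Wnt. It was lost with DESeq2, with scaling by library totals and with only the compared groups in the fit. It was also lost in 9 of the 14 fits with 1 library left out: those without either library of high Wnt, low Wnt, low Wnt + SB4 or low Wnt + TGFB and that without high Wnt + TGFB replicate 2 (adjusted p 0.0532 to 0.41 over all of these).

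SOX9 (chr17:72121020-72126419, plus strand), which drives crest survival and cartilage, rose with induction at both doses. Its levels were 6.22 and 5.60 CPM in hESC, 20.3 and 15.2 in low Wnt, and 24.0 and 20.4 in high Wnt, so that no induced library overlapped hESC. The rise was 1.58 ± 0.23 in low Wnt and 1.90 ± 0.24 in high Wnt on the log2 scale (adjusted p = 1.43e-05 and 1.62e-06). All 6 induced groups lay between 14.3 and 24.6 CPM on average, each overlapped the next in the order of levels, and no additive moved SOX9 past the threshold (adjusted p 0.212 to 0.647).

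SOX8 (chr16:981808-986979, plus strand), the third SOXE gene, was highest in high Wnt. It stood at 8.66 and 12.98 CPM in hESC, 12.5 and 14.7 in low Wnt, and 24.0 and 20.8 in high Wnt. It rose in high Wnt against hESC by 1.056 ± 0.19 (log2, adjusted p = 0.000123). The rise against low Wnt was 0.72 ± 0.19 (adjusted p = 0.00556), lost without high Wnt replicate 1 or low Wnt replicate 1 (adjusted p 0.0599 and 0.0615). In low Wnt against hESC its log2 fold change was 0.33 ± 0.20 (adjusted p = 0.14), which passed only without hESC replicate 2 (adjusted p = 0.016). With SB4, SOX8 was at 8.47 and 9.07 CPM in low Wnt and at 16.8 and 15.5 CPM in high Wnt, below both libraries without additive at each dose. The log2 change was -0.63 ± 0.19 in low Wnt (adjusted p = 0.0469) and -0.47 ± 0.19 in high Wnt (adjusted p = 0.0819), and the effects did not differ between doses past the threshold (adjusted p = 0.837). Both values lie near the threshold. The low Wnt call was lost in 10 of the 14 fits with 1 library left out, which are all those without a library of low Wnt, low Wnt + SB4 or a high Wnt group (adjusted p 0.0538 to 0.272). The high Wnt change became a call with no filter on low counts, with only the compared groups, and without both or either of the hESC libraries (adjusted p 0.0396 to 0.0499). With TGFB the change in low Wnt was -0.47 ± 0.19 (adjusted p = 0.0874), and it passed without low Wnt + TGFB replicate 2 (adjusted p = 0.043).

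In TPM, the sum of the 3 SOXE genes was 15.4 ± 1.92 in hESC, 27.8 ± 0.46 in low Wnt and 35.2 ± 2.29 in high Wnt. SOX10 made up 28.0 ± 1.01% of that sum in hESC, 13.6 ± 0.36% in low Wnt and 24.6 ± 1.12% in low Wnt + TGFB. Its share was 6.63 ± 1.15% in low Wnt + SB4, 4.01 ± 0.03% in high Wnt, 2.63 ± 0.68% in high Wnt + SB4 and 1.98 ± 0.85% in high Wnt + TGFB. SOX9 held the largest share with SB4, 59.8 ± 8.84% in low Wnt + SB4 and 52.6 ± 1.95% in high Wnt + SB4, and SOX8 in high Wnt and high Wnt + TGFB, at 54.4 ± 0.37% and 57.8 ± 3.27%. In low Wnt SOX8 and SOX9 were level, at 43.1 ± 7.01% and 43.3 ± 6.65%. These shares are descriptions and were not tested.

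**Figure D4:**
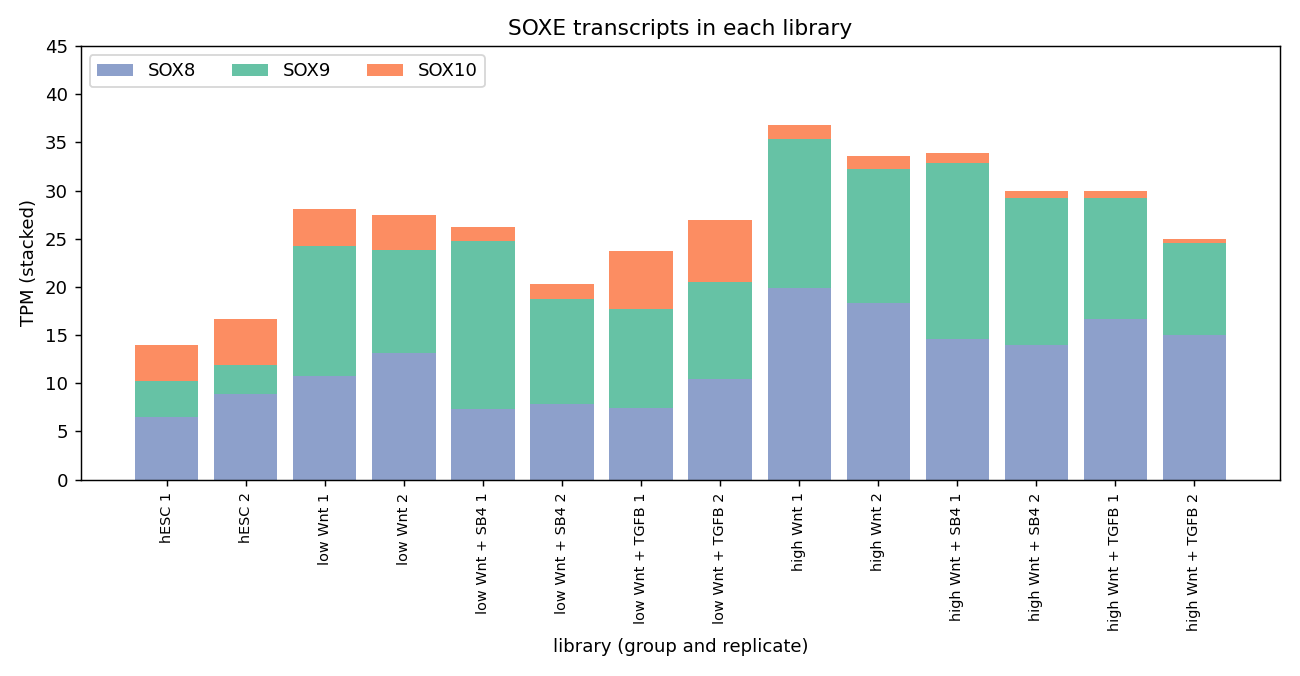
Stacked bars of the levels of SOX8, SOX9 and SOX10 in TPM (y axis, from 0) in each of the 14 libraries (x axis, group and replicate number). SOX10 is a visible part of the bar in hESC, low Wnt and low Wnt + TGFB, at 13.6 to 28.0% of the sum on average, and a thin cap in the high Wnt groups, at 1.98 to 4.01%.

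SOX5 (chr12:23532297-24562449, minus strand), a SOXD factor without an activation domain of its own that works with SOXE proteins, was nearly absent before induction. It stood at 0.444 and 0.679 CPM in hESC, 20.2 and 24.5 in low Wnt, and 12.1 and 12.7 in high Wnt, and the 3 groups did not overlap. Its rise was 5.31 ± 0.25 in low Wnt (log2, adjusted p = 1.85e-11) and 4.46 ± 0.27 in high Wnt (log2, adjusted p = 2.38e-10). It was lower in high Wnt than in low Wnt by 0.85 ± 0.16 (log2 fold change -0.85, adjusted p = 0.000433). With TGFB in low Wnt it was at 16.01 and 15.8 CPM, a log2 change of -0.49 ± 0.16 (adjusted p = 0.0282). That call was lost with DESeq2, with scaling by library totals and without low Wnt replicate 2 or either low Wnt + TGFB library (adjusted p 0.06 to 0.246). With SB4 its log2 change was -0.10 ± 0.15 in low Wnt and 0.36 ± 0.16 in high Wnt (adjusted p = 0.747 and 0.127).

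RXRG (chr1:165400922-165445355, minus strand), a retinoid X receptor seen in avian crest, was low in every library, at no more than 33 counts. It had 0 and 1 counts in hESC, 25 and 19 in low Wnt, and 7 and 6 in high Wnt. The ratio to hESC was 33.6 in low Wnt with a 95% counting interval of 5.72 to 1360 (adjusted p = 7.36e-05), and 12.4 in high Wnt with an interval of 1.86 to 526 (adjusted p = 0.00671). The second of these was lost without hESC replicate 1 (adjusted p = 0.067). It was lower in high Wnt than in low Wnt by 1.42 ± 0.52 (log2 fold change -1.42, adjusted p = 0.0388), a call lost with DESeq2 and without any 1 of the 4 libraries compared (adjusted p 0.0577 to 0.204). High Wnt + SB4 held 18 and 24 counts, above both high Wnt libraries, but the log2 change of 1.33 ± 0.52 did not pass (adjusted p = 0.0813).

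LMO4 (chr1:87328468-87348923, plus strand), a LIM-only adaptor that binds SNAIL-family and other crest factors, was the most abundant of the 10 per length in most groups and was called in none of the 9 comparisons. Its level ran from 80.3 to 113 CPM over the 14 libraries, and its largest log2 change was 0.23 ± 0.10 with SB4 in low Wnt (adjusted p = 0.153). In low Wnt it stood at 45.7 ± 1.81 TPM, ahead of SOX5, SOX8 and SOX9, which stood at 12.02, 11.95 and 12.04 TPM, and of ETS1 at 7.17 ± 0.95 TPM. SOX10 followed at 3.78 ± 0.16 TPM, TFAP2A at 2.203 ± 0.22, RXRG at 1.31 ± 0.23, TFAP2B at 1.27 ± 0.03 and FOXD3 at 0.658 ± 0.60. In hESC the order differed: FOXD3 stood at 38.6 ± 4.22 TPM, LMO4 at 36.1 ± 1.44 and ETS1 at 33.1 ± 7.44, which overlap, with SOX8 next at 7.74 ± 1.69.

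Across the 14 libraries, TFAP2A and TFAP2B had a Pearson r of 0.91 on log2 CPM, and SOX5 had 0.90 with RXRG and 0.86 with SOX9. ETS1 had -0.82 with RXRG, and TFAP2B had -0.68 with SOX8. Among all tested genes with at least 10 CPM in their highest group, the nearest in pattern were EPHA4 for SOX5 (r = 0.989), LGMN for SOX8 (0.922), SFI1 for SOX9 (0.977), CPNE7 for SOX10 (0.955) and C12orf45 for FOXD3 (0.984). For TFAP2A it was LGI1 (0.965), for TFAP2B SKIDA1 (0.99), for ETS1 HSPA2 (0.973), for LMO4 PNMA1 (0.926) and for RXRG AK7 (0.957). These values describe 14 libraries that share 7 treatments and were picked as the highest of many.

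Border genes that act before the specifiers were called in both directions in low Wnt and mostly higher in high Wnt, where the AP-2 pair was nearly absent. Of 12 neural plate border genes, 10 were tested. In low Wnt against hESC 5 were called higher, against 35.8% of all genes tested, and 4 lower, against 35.6%. In high Wnt against hESC 8 were called higher, against 36.3%, and 1 lower, against 36.1%. PAX3, a border factor that acts with ZIC1 to induce crest, went from 0.0848 ± 0.12 CPM in hESC to 7.61 ± 1.38 in low Wnt and 173 ± 6.05 in high Wnt (log2 fold change 4.51 ± 0.14 between the doses, adjusted p = 1.77e-13). ZIC1 stood at 3.42 CPM in hESC, 1.21 in low Wnt and 91.8 in high Wnt, and MSX1 at 0.275, 3.47 and 121. Paraxial mesoderm, which also expresses PAX3, had markers that were high in the same group: MEOX1 stood at 0.545 ± 0.26 CPM in low Wnt and 73.6 ± 2.53 in high Wnt, and PDGFRA at 10.8 ± 1.95 and 233 ± 13.7. Their part in the border gene levels was not tested. With TGFB in low Wnt, 8 of the 10 border genes were called higher, against 13.7% of all genes, and none lower, against 12.2% (median log2 fold change 0.86, against -0.01 over all genes tested). With SB4 in low Wnt 2 were higher, against 4.84%, and 3 lower, against 6.39%. The counts differed in high Wnt. With SB4 there, 7 were called higher, against 9.94%, and 1 lower, against 11.6%. With TGFB there, 1 was called higher, against 3.75%, and 3 lower, against 3.49%. For 8 of the 10 the TGFB effect was called lower in high Wnt than in low Wnt (11.8% of all genes differed in either direction). The SB4 effect was called higher there for 3 and lower for 1 (6.07% in either direction).

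Genes linked to SOX10 and SOX9 were called in both directions. Of 16 genes of crest glia, pigment cells and neurons that are linked to SOX10, 14 were tested; in high Wnt against low Wnt 4 were called higher, against 19.4% of all genes, and 6 lower, against 19.1%, the latter including NGFR, a receptor used to sort crest cells, and RET, a receptor of enteric crest. NGFR stood at 95.99 ± 4.04 CPM in low Wnt and 18.7 ± 0.75 in high Wnt (log2 fold change -2.36 ± 0.13, adjusted p = 1.84e-10). Other genes of the list lay higher in high Wnt. FABP7 stood at 8.08 ± 0.58 CPM in low Wnt and 40.6 ± 2.22 in high Wnt, and EDNRB at 3.04 ± 1.20 and 16.3 ± 2.66. ERBB3, a SOX10 target needed by glia, stood at 17.7 CPM in low Wnt, 8.64 with SB4 and 42.3 with TGFB, both called (log2 fold change -1.04 ± 0.14 and 1.25 ± 0.12), but it was highest in hESC at 82.1. With TGFB in high Wnt 5 of the 14 were called lower, among them FABP7 and NGFR, against 3.49% of all genes, and none higher, against 3.75%. Of 12 cartilage genes linked to SOX9, 10 were tested, with 5 higher and 3 lower in low Wnt against hESC, where 35.8% and 35.6% of all genes were called. In high Wnt against hESC 4 were higher and 4 lower, where 36.3% and 36.1% of all genes were called, so these counts lie near the share of all genes. COL2A1, the main cartilage collagen, rose from 29.99 ± 3.67 CPM in hESC to 329 ± 12.7 in low Wnt and 548 ± 7.74 in high Wnt.

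Relatives of the 10 had levels of their own. TFAP2C, the AP-2 gene of trophoblast and germ cells, stood at 12.9 ± 0.73 CPM in high Wnt, where TFAP2A and TFAP2B had almost no counts, and at 4.04 ± 0.63 in low Wnt (log2 fold change 1.67 ± 0.25, adjusted p = 4.81e-05). In low Wnt it fell with SB4 by 2.08 ± 0.33 on the log2 scale and rose with TGFB by 1.80 ± 0.25. FOXD1, a forkhead factor of kidney stroma and somites, stood at 11.3 ± 1.25 CPM in high Wnt and 27.4 ± 0.54 in high Wnt + TGFB, against 0.151 ± 0.04 in low Wnt. Of 5 genes related to ETS1, 3 were called higher with TGFB in low Wnt (13.7% of all genes), ETS2 by 1.27 ± 0.13 (log2). With SB4 in high Wnt 2 of the 5 were called lower (11.6% of all genes), ELK3 by -0.67 ± 0.14 and ETS2 by -0.49 ± 0.13 on the log2 scale, beside -3.38 for ETS1. RARB, a retinoid receptor that is itself induced by retinoic acid, stood at 0.238 CPM in hESC, 83.6 in low Wnt, 12.4 in high Wnt and 27.2 in high Wnt + SB4. Among the other SOX genes, SOX6, the closest relative of SOX5, rose from 1.81 ± 0.54 CPM in low Wnt to 5.40 ± 0.34 in high Wnt (log2 fold change 1.57 ± 0.31, adjusted p = 0.000601), while SOX5 was called lower there. Of 5 LMO and LDB genes, 3 were called higher (19.4% of all genes) and 1 lower (19.1%) in high Wnt against low Wnt, the last being LMO1, with 63 counts in low Wnt and 0 in high Wnt.

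Markers of other cell types moved with the groups too. The 12 paraxial mesoderm and sclerotome markers summed to 438 to 457 CPM in high Wnt, 294 to 312 in high Wnt + SB4 and 871 to 933 in high Wnt + TGFB, against 9.85 to 24.6 in hESC and the low Wnt groups. In the high Wnt groups the AP-2 pair had almost no counts and SOX10 was low. SOX10 was about as low in low Wnt + SB4, at 1.65 and 1.62 CPM against 1.66 and 1.44 in high Wnt. The mesoderm sum in low Wnt + SB4 was 9.85 to 10.2 CPM. The AP-2 pair also had almost no counts in hESC. The part of these markers in the levels of the AP-2 pair and SOX10 was not tested. The 12 markers of central nervous system progenitors summed to 346 to 368 CPM in low Wnt, 618 to 723 in low Wnt + SB4, 101 to 107 in low Wnt + TGFB and 65.9 to 88.3 in hESC. They summed to 57.8 to 63.3 CPM in high Wnt, 190 to 202 in high Wnt + SB4 and 37.7 to 41.7 in high Wnt + TGFB. PAX6, an early factor of the neural plate and eye, stood at 6.33 ± 0.49 CPM in high Wnt and 78.8 ± 12.4 in high Wnt + SB4. The sum was thus higher with SB4 at both doses, and the part of these markers in the SOX10 and ETS1 changes with SB4 was not tested. The 12 surface ectoderm and placode markers summed to 248 to 267 CPM in low Wnt and 602 to 796 in low Wnt + TGFB, where TFAP2A, which surface ectoderm also expresses, was highest. They were also at 871 to 1156 CPM in hESC, 529 to 645 in high Wnt and 1069 to 1179 in high Wnt + TGFB, where TFAP2A had almost no counts, and at 154 to 161 in low Wnt + SB4 and 330 to 373 in high Wnt + SB4. KRT5 and KRT14 were at 0 in every library, and TP63 was at 0 in both libraries of low Wnt + TGFB. Most of the sum in every group came from KRT8 and KRT18. These stood at 203 and 38.9 CPM in low Wnt and at 492 and 174 in low Wnt + TGFB. Between these groups GRHL2 went from 0.450 to 8.97 CPM, with 46.2 in hESC, and GATA3 from 3.04 to 9.84. EYA1 and EYA2 were lower in low Wnt + TGFB than in low Wnt. The part of these markers in the TFAP2A changes was not tested.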

How the data were processed

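Polyadenylated RNA of 14 libraries in 7 groups was sequenced with a strand-keeping kit, per the labels' protocols. The authors deposited raw counts for each gene as a single table. The submitters' processing notes name hg38, featureCounts 2.0.0, SAMtools 1.10 and HISAT2 2.2.0. Per the file headers, read pairs were counted over exons of UCSC genes with reverse strandedness, and multiply mapped reads and reads over several genes were left out. Exons of FOXD3 and TFAP2A overlap antisense genes on the other strand, which this strand setting separates.

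These were fitted with edgeR 4.0.16 in R 4.3.3: filterByExpr by group, TMM scaling, and quasi-likelihood tests in 1 fit of all 14 libraries (7 residual degrees of freedom, common biological coefficient of variation 0.101), with 9 contrasts and Benjamini-Hochberg adjustment. The SE is the log2 fold change divided by the square root of F. CPM used TMM-scaled totals, and TPM used the deposited exonic lengths. Folds were computed against a floor of 3 counts over the group where it had none, and with an exact 95% counting interval at 1 to 3 counts. Such values cover counting error only. The 2 libraries of each group differed beyond sampling noise, at a chi-square of 5.26 to 14.1 per degree of freedom.

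The members and all lists were chosen with earlier results of these data known. Named were the 10 members, up to 3 called genes of smallest p per list and comparison, and the gene of highest r with each member. The 10 pathway lists were neural plate border, other crest and EMT factors, SOX10-linked, SOX9-linked, and relatives of the SOX, AP-2, FOXD, ETS1, LMO and retinoid receptor genes. The 6 marker lists were pluripotent, surface ectoderm, central nervous system, paraxial mesoderm, endoderm, and endothelium and blood. Alternatives were each library left out, the replicate number as a block, no hESC libraries, only the compared groups in the fit, no filter on low counts, scaling by RLE or by library totals, and DESeq2 1.42.0. The tests were checked on simulated counts.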

Additional observations from a re-analysis of the deposited data

Results flagged for a closer look

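The change of ETS1 with SB4 differed between the CHIR99021 doses: the log2 effect in high Wnt minus that in low Wnt was -2.48 ± 0.20 (adjusted p = 1.00e-06 in edgeR's quasi-likelihood test of the difference). Both effects were negative, and all 4 libraries with SB4 lay below the 4 without additive.

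The change of ETS1 with TGFB differed as well, with a log2 difference of -1.001 ± 0.18 (adjusted p = 0.00106 in the same edgeR test). In low Wnt both libraries with TGFB lay above both without, and in high Wnt they did too, by a smaller step.

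The change of SOX10 with TGFB differed between the doses by -2.11 ± 0.51 on the log2 scale (adjusted p = 0.0107 in the same edgeR test). Both low Wnt + TGFB libraries lay above low Wnt, and both high Wnt + TGFB libraries lay below high Wnt. High Wnt + TGFB held only 15 counts against 41 in high Wnt, and the difference was not called without high Wnt + TGFB replicate 2. Taken alone, the low Wnt effect was not called, and the high Wnt call was lost with DESeq2.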

How the results depend on the processing

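Of 33 called fold changes of single members, 25 stayed called under every alternative and 8 were lost under at least 1; of 49 uncalled ones, 5 passed under at least 1, and no called change turned its direction. With SB4 in high Wnt, the number of members called went from 1 to 2 with no filter, with only the groups compared and without the hESC libraries, SOX8 joining ETS1. With TGFB in high Wnt it went from 1 to 0 with DESeq2 (3 members at an unadjusted p under 0.05), library totals alone (2) and only the groups compared (3). The cause was not tested. Leaving out 1 library, in which case the lone library of a group is assumed to vary like the others, gave 1 to 3 members for SB4 in low Wnt, 1 to 2 for SB4 in high Wnt, 0 to 1 for TGFB in high Wnt and 1 to 3 for the TGFB difference between doses. Over all genes it gave 784 to 2166 calls for SB4 in low Wnt, 2347 to 4621 for TGFB in low Wnt, 1942 to 3956 for SB4 in high Wnt, 538 to 1490 for TGFB in high Wnt and 1251 to 2189 for the TGFB difference, where fewer libraries were tested.

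The libraries were not treated as paired, since the labels give only a number. Deviations of same-numbered libraries correlated at -0.116 to 0.206, over 0.1 in 5 of 21 pairs of groups. Within a dose they were 0.111 to 0.206 among the high Wnt groups and 0.084 to 0.128 among the low Wnt groups. With the replicate number as a block, the members called stayed at 7 in low Wnt against hESC and at 3 with SB4 in low Wnt, and the block changed no other member count. TFAP2A, TFAP2B, FOXD3 and RXRG had 0 or a few counts per library in some groups, which limits the precision of their changes there.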
